A study of Mus musculus with 3 samples.

Results

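The probes for the LIF, gp130 and Stat3 signalling genes were described on 3 arrays. The genes asked for were Lif, Lifr, Il6, Il6st, Il11, Osmr, Jak1, Stat3 and Socs3, and a probe was taken when the array design names it with one of these symbols and it is not a control. The choice gave 15 probes for 8 of the 9 genes, out of 41174 probes with 27745 gene labels in all. Lifr had 4 probes, Jak1 had 3, Osmr and Stat3 had 2 each, and Il6, Il6st, Il11 and Socs3 had 1 each. No probe carried the name Lif, so no value is given under that name. Of the 15 probes, 14 carried the same gene name in the design listings of all 3 arrays, and the probe A_52_P577180 was named Jak1 in 1 of them.

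LIF, interleukin 6, interleukin 11 and oncostatin M are secreted cytokines of one family, and their receptors share the signalling chain gp130, which is the product of Il6st. LIF binds the LIF receptor, the product of Lifr, paired with gp130. The paired chains activate JAK kinases, which phosphorylate the transcription factor STAT3, and STAT3 switches on Socs3, whose product shuts the receptor off again. LIF is the classic additive that keeps mouse embryonic stem cells undifferentiated in culture, and in fibroblasts the same chain carries inflammatory and acute-phase signals.

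The study measured total RNA of mouse embryonic fibroblasts labelled p53-null MEF (here also p53-null fibroblasts), of embryonic stem (ES) cells, and of mouse embryonic fibroblasts (MEF) with wild-type p53 by the design text. Each of the 3 samples carried a Nanog-GFP reporter, a green fluorescent protein placed under the control of a pluripotency gene. The Cy3-labelled RNA was read on 1-colour Agilent arrays, with 1 array per group. The labels give the samples as the origin of induced pluripotent stem (iPS) cells; how the p53-null allele was made, passage, culture medium and LIF supplementation are not given in the sources used here. The fibroblasts without p53 and the ES cells were each compared with the wild-type MEF, so both comparisons use the same MEF array.

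With 1 array per group there was no biological replicate and no test between groups. Signals are in the linear intensity units of the scanner software. A difference is the log2 signal of one array minus that of another, after the 75th percentile of the 43379 non-control spots of each array was subtracted. The ± value beside it combines the error that the scanner software gives for both signals, about 10% for a bright spot, and covers the measurement on the array, not the spread between cultures. Neighbouring levels less than 2 such errors apart are called indistinguishable on these arrays.

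The labels were checked first. The Trp53 signal was 29.1-fold lower in p53-null fibroblasts than in MEF at one probe (56.3 against 1304 units) and 2.76-fold lower at the other (260 against 572 units), and it was 4902 and 304 units in ES cells. In log2 these differences were -4.87 and -1.46. Scaling to spike-in controls, described below, raised p53-null values by 1.98, which is more than the gap at the second probe and less than that at the first. All 12 fibroblast markers were well above background on both MEF arrays, and 11 of 11 ES cell markers on the ES array. Of these 11 ES cell markers, 5 were also well above background in MEF, and 2, Sox2 and Dppa5a, in p53-null fibroblasts. Their signals there were far below those of ES cells: Dppa5a gave 196, 251767 and 554 units in p53-null fibroblasts, ES cells and MEF, and Sox2 gave 99.1, 15830 and 122 units. The ES array also held 11 of the 12 fibroblast markers well above background, with Lum the exception, at a summed level 7.43% of that in MEF. Most of that sum in ES cells was Vim and S100a4, with 33352.5 and 27031.9 units. The summed level of the fibroblast markers in p53-null fibroblasts was 72.3% of that in MEF. The ES and MEF arrays shared a slide and a scan day and the p53-null array had its own, so the slide and the p53 status cannot be told apart. Xist, the RNA of the inactive X chromosome, gave 7437 units in p53-null fibroblasts and was not well above background on the other arrays. The Y-linked Eif2s3y gave 4.07, 4104 and 1236 units in p53-null fibroblasts, ES cells and MEF. Ddx3y and Kdm5d, also Y-linked, were well above background in MEF and not in p53-null fibroblasts. By these genes the fibroblast samples differed in sex, so sex and p53 status cannot be told apart either.

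Each of the 8 genes was first taken at its brightest probe. In ES cells the gp130 chain Il6st, the receptor Osmr, the kinase Jak1, the factor Stat3 and the cytokines Il6 and Il11 were each at least 2-fold lower than in MEF, and Socs3 alone of the 8 was at least 2-fold higher. Lifr was 1.52-fold higher at its brightest probe and over 3-fold higher at its other 3, which were dimmer and differed less with another background correction. That made 6 genes lower, 1 higher and 1 within 2-fold, with a median difference of -1.89, where 27.2% of the 18839 genes measured in that comparison were lower by at least 2-fold and 32.8% were higher by as much, with a median of 0.20. In p53-null fibroblasts, Lifr was at least 2-fold higher than in MEF and Stat3 at least 2-fold lower, and the other 6 genes lay within 2-fold. The median over the 8 genes was -0.25, and 18.6% of 17476 genes were higher by at least 2-fold and 16.6% were lower by as much, with a median of 0.03.

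**Figure D1:**
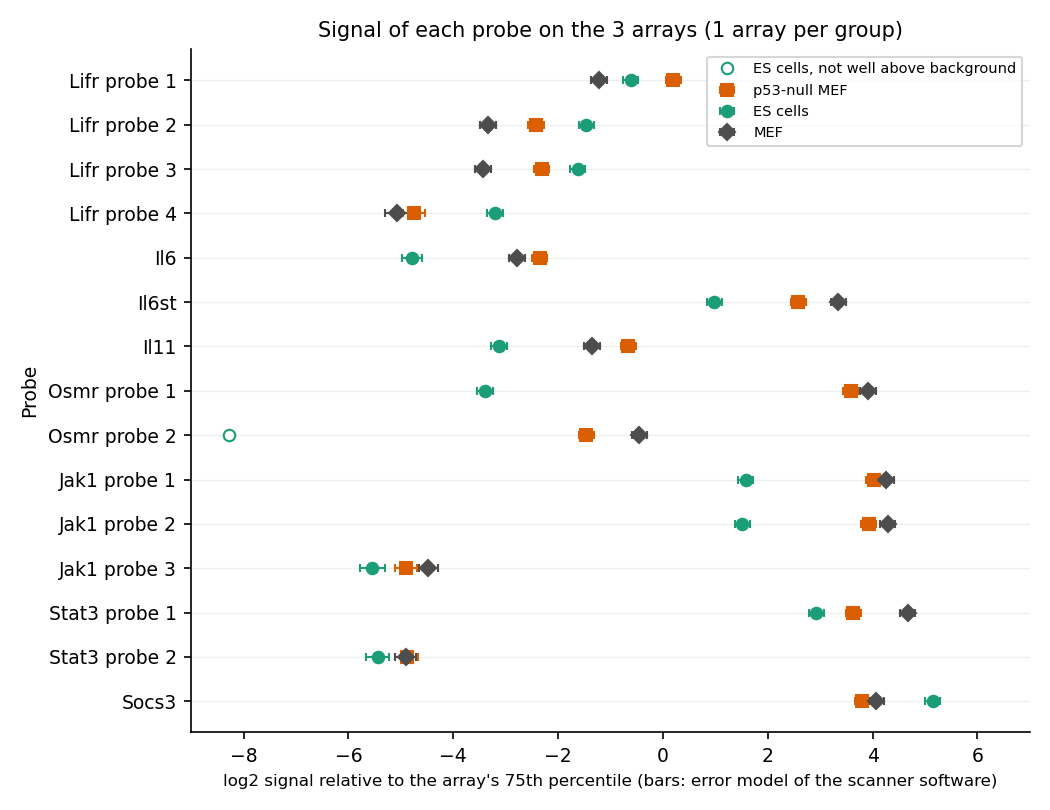
Log2 signal of each of the 15 probes relative to the 75th percentile of its array (horizontal axis), for the p53-null MEF, ES cell and MEF arrays; bars are the scanner software's error and the open circle is a signal not well above background. The ES array reads lowest at the probes of Il6, Il6st, Il11, Osmr, Jak1 and Stat3 and highest at Socs3 and at 3 of the 4 Lifr probes. Probes of a gene are numbered from the brightest, and positions of different probes cannot be set against each other as transcript amounts.

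The direction of the p53-null comparison depended on what counts as equal. The p53-null array read its 7 spike-in control probes lower than the MEF array did, and scaling to them, an alternative chosen after seeing the data, moved the median of all genes by 1.98 in log2. All 15 probes then read higher in p53-null fibroblasts, from 0.94 at the brighter Stat3 probe to 3.40 at the brightest Lifr probe. A lower value in p53-null fibroblasts is therefore lower relative to the bulk of the genes on the array. The same scaling moved the ES cell comparison by 0.23 and turned no probe of these genes in it.

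Il6 encodes interleukin 6, the cytokine that signals through its own receptor chain and gp130. Its probe A_51_P217218 (mm8 chr5:30350609-30350668) was spotted 10 times on each array, with means of 204 units in p53-null fibroblasts, 30.4 in ES cells and 121 in MEF. The spots ran from 189 to 227 units in p53-null fibroblasts, from 25.7 to 37.5 in ES cells and from 99.6 to 132 in MEF, so the repeated spots of the 3 arrays did not overlap. Il6 was 4.0-fold lower in ES cells than in MEF (-2.0 ± 0.24). With background correction by normexp, which adds an offset and pulls dim signals together, the same difference was -1.0. In p53-null fibroblasts it was 1.35-fold higher than in MEF (0.43 ± 0.21), just beyond 2 errors, and with normexp the difference was 0.25, within 2 of those errors.

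Il11 encodes interleukin 11, a gp130 cytokine made by stromal cells. At its probe A_51_P267783 (mm8 chr7:4376332-4376391) the signal was 657 units in p53-null fibroblasts, 95.7 in ES cells and 324 in MEF. The order was that of Il6, with p53-null fibroblasts highest and ES cells lowest, and each step exceeded 2 errors. Il11 was 3.41-fold lower in ES cells than in MEF (-1.77 ± 0.21) and 1.61-fold higher in p53-null fibroblasts (0.69 ± 0.20).

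**Figure D2:**
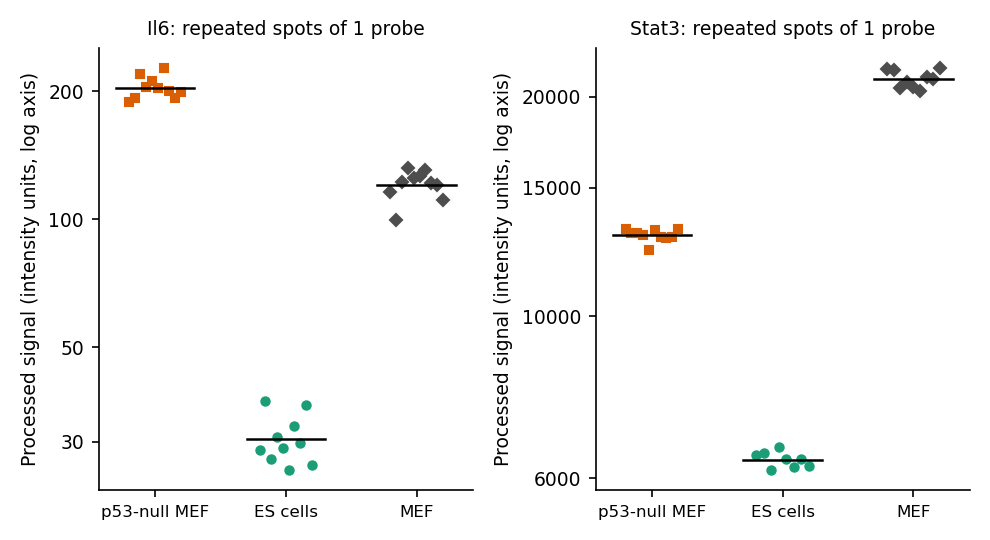
Processed signal of each repeated spot (log axis, intensity units) of the Il6 probe and of the brighter Stat3 probe on the p53-null MEF, ES cell and MEF arrays; lines are means of the spots. The spots of 1 array form a band separate from the bands of the other arrays for both genes, and they measure the precision within an array only.

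LIF itself was measured, if at all, by a probe under another name. The probe A_51_P306109 (mm8 chr11:4174323-4174382), named for a cDNA clone, is described in the array design as leukemia inhibitory factor, and it was picked out after its values were seen. Its signal was 25.0 units in p53-null fibroblasts, 327 in ES cells and 51.3 in MEF. ES cells were 6.34-fold above MEF (2.66 ± 0.22), and p53-null fibroblasts 2.57-fold below MEF (-1.36 ± 0.31), a difference smaller than the shift of 1.98 under spike-in scaling. No RefSeq accession ties the probe to Lif, so these values are not counted with the genes above.

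Lifr encodes the LIF-binding chain of the receptor. Its 4 probes all read higher in ES cells than in MEF, and the 3 brightest also read higher in p53-null fibroblasts than in MEF by more than 2 errors, but they did not give the same order of the arrays. The brightest probe, A_52_P579352, matches chr15:7131976-7132782 on mm8, where its 60 bases span 807 bases of the genome. A_52_P192699 lies at chr15:7132889-7132948, A_52_P297113 at chr15:7138274-7138333 and A_51_P113182 at chr15:7138365-7138424. Because the order differed between probes, the sequences of 3 of them, each with at least 1 reading frame free of stop codons, are given to show which stretches they query.
A_52_P579352: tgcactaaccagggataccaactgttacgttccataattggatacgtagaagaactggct
A_52_P192699: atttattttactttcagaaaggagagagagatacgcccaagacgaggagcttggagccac
A_52_P297113: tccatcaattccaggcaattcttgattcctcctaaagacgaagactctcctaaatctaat

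The first of these sequences gave 1196 units in p53-null fibroblasts, 546 in ES cells and 356 in MEF. Here p53-null fibroblasts were highest, 2.68-fold above MEF (1.42 ± 0.20), and ES cells lay between them, 1.52-fold above MEF (0.61 ± 0.20). The second gave 38.6 units in p53-null fibroblasts, 90.5 in ES cells and 24.6 in MEF. ES cells were highest there, 3.66-fold above MEF (1.87 ± 0.27), while p53-null fibroblasts and MEF were indistinguishable (0.32 ± 0.31, and -0.19 with normexp). The third gave 194, 303 and 81.8 units in p53-null fibroblasts, ES cells and MEF. That put ES cells 3.68-fold above MEF (1.88 ± 0.21) and p53-null fibroblasts 1.89-fold above MEF (0.92 ± 0.21).

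The remaining Lifr probe, A_51_P113182, lies next to A_52_P297113 and gave 209 units in p53-null fibroblasts, 271 in ES cells and 76.5 in MEF. Its differences from MEF, 1.12 ± 0.21 in p53-null fibroblasts and 1.81 ± 0.21 in ES cells, were close to those of that neighbour. Over the 4 probes the difference from MEF ran from 0.61 to 1.88 in ES cells and from 0.32 to 1.42 in p53-null fibroblasts, both ranges wider than the error of a single probe. With normexp the ES cell differences were as low as 0.74 at A_52_P192699, 1.26 at A_52_P297113 and 1.18 at A_51_P113182. The p53-null differences at A_52_P297113 and A_51_P113182 were then as low as 0.55 and 0.62. ES cells were thus the highest array at 3 of 4 Lifr probes, all dimmer, and p53-null fibroblasts at the brightest one. Which probe is read, and for A_52_P192699 the background correction, decides whether Lifr counts as 2-fold higher in ES cells.

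Il6st encodes gp130, the chain shared by the receptors of LIF, IL-6, IL-11 and oncostatin M. Its probe A_51_P473888 (mm8 chr13:113627256-113627315) gave 6222 units in p53-null fibroblasts, 1649 in ES cells and 8451 in MEF. MEF was highest and ES cells lowest, and both steps exceeded 2 errors. The signal was 5.16-fold lower in ES cells than in MEF (-2.37 ± 0.20) and 1.70-fold lower in p53-null fibroblasts (-0.77 ± 0.20, turning to 1.21 under spike-in scaling). Lifr and Il6st, whose products pair to bind LIF, therefore differed from MEF in opposite directions in ES cells.

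Osmr encodes the chain that pairs with gp130 to bind oncostatin M, and it showed the widest gap of the 8 genes. At A_51_P319460 (mm8 chr15:6760901-6760960) the signal was 12467 units in p53-null fibroblasts, 79.1 in ES cells and 12499 in MEF. The fibroblast arrays were indistinguishable there (-0.33 ± 0.20), and ES cells were 159-fold lower than MEF (-7.31 ± 0.21). At A_52_P495729 (mm8 chr15:6762258-6762317) the signal was 379 units in p53-null fibroblasts and 607 in MEF, and 2.69 in ES cells, where it was not well above background. Against the lowest signal well above background on the ES array, 10.1 units, Osmr was at least 60.5-fold lower in ES cells at that probe. The second probe was also 2.01-fold lower in p53-null fibroblasts than in MEF (-1.01 ± 0.20, turning to 0.97 under spike-in scaling), so the Osmr probes differed on whether the fibroblast arrays could be told apart. Fibroblast markers summed to 7.43% of the MEF level in ES cells, a sum made up mostly of Vim and S100a4. Singly they ran from 2.83-fold lower than in MEF at Vim to at least 1059-fold lower at Lum. The part of fibroblast RNA in the Osmr level was not tested. In bulk RNA, fewer cells of a type and less RNA per cell cannot be told apart.

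Jak1 encodes a tyrosine kinase bound to gp130. A_52_P106463 (mm8 chr4:100650421-100650480) gave 16961 units in p53-null fibroblasts, 2489 in ES cells and 15943 in MEF. A_51_P256642 (mm8 chr4:100651121-100651180) gave 15832, 2386 and 16227 units in p53-null fibroblasts, ES cells and MEF. At both probes the ES array was far below the other arrays, 6.44-fold and 6.84-fold lower than MEF (-2.69 ± 0.20 and -2.77 ± 0.20). The fibroblast arrays were indistinguishable, with differences of -0.24 ± 0.20 and -0.36 ± 0.20 that turned to 1.74 and 1.61 under spike-in scaling. With no scaling at all the first of them was 0.09.

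The third Jak1 probe, A_52_P577180 (mm8 chr4:100654397-100654456), is the one named Jak1 in 1 of the 3 listings, and its listed coordinates run in the opposite order to those of the other probes. It was dim, with 34.9 units in p53-null fibroblasts, 17.9 in ES cells and 37.4 in MEF. ES cells were again lowest, but by 2.10-fold (-1.07 ± 0.29), and with normexp the difference was -0.40. The 3 probes listed as Jak1 thus ran from -2.77 to -1.07 in ES cells against MEF, and from -0.43 to -0.24 in p53-null fibroblasts against MEF. Whether the third probe, with its opposite coordinate order, reads the Jak1 transcript was not tested.

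Stat3 encodes the transcription factor at the end of the chain. A_51_P201480 (mm8 chr11:100704374-100704433) was spotted 10 times, and 10, 8 and 9 spots were kept on the p53-null, ES and MEF arrays. The means were 12925 units in p53-null fibroblasts, 6360 in ES cells and 21167 in MEF. The spots ran from 12323 to 13187 units in p53-null fibroblasts, from 6154 to 6610 in ES cells and from 20389 to 21911 in MEF, and the arrays did not overlap. Stat3 was 3.35-fold lower in ES cells than in MEF (-1.74 ± 0.20). In p53-null fibroblasts it was 2.05-fold lower than in MEF (-1.04 ± 0.20), close to the 2-fold line: the difference was -0.71 with no scaling and 0.94 under spike-in scaling.

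The other Stat3 probe, A_52_P569499 (mm8 chr11:100701238-100701297), was dim and did not separate the arrays. It gave 35.1 units in p53-null fibroblasts, 19.2 in ES cells and 27.6 in MEF. Its differences from MEF were 0.02 ± 0.29 in p53-null fibroblasts and -0.53 ± 0.30 in ES cells, both within 2 errors. The lower Stat3 level in p53-null fibroblasts therefore rests on a single probe.

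**Figure D3:**
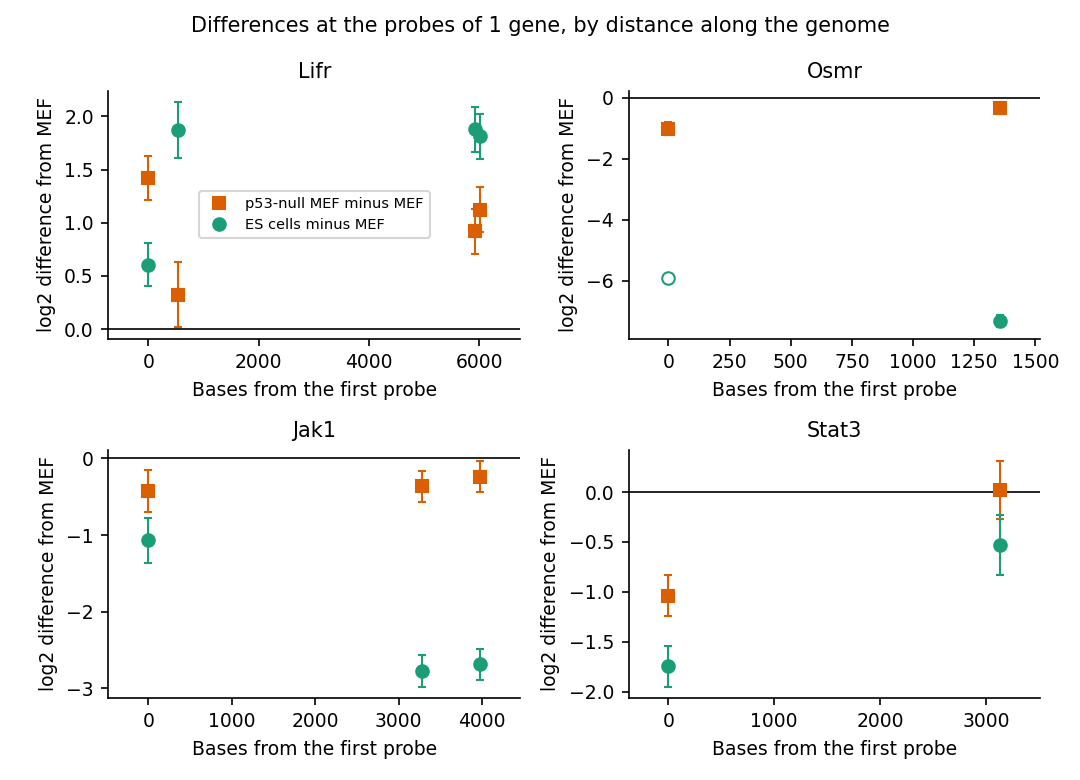
Log2 difference from MEF (vertical axis) at each probe of Lifr, Osmr, Jak1 and Stat3 against its distance in bases from the first probe, which is the one with the lowest coordinate for Lifr and the highest for the other genes; bars are the scanner software's error and the open circle is a bound. Lifr probes disagree on whether p53-null MEF or ES cells stand higher, and the dim Jak1 and Stat3 probes show smaller ES differences than the bright ones. The p53-null differences are relative to the 75th percentile and all turn positive under spike-in scaling.

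Socs3 encodes the inhibitor that STAT3 induces and that binds gp130 to stop the signal. It was the one gene of the 8 with both a higher level in ES cells and no distinguishable difference between the fibroblast arrays. A_51_P474459 (mm8 chr11:117782256-117782315) gave 14541 units in p53-null fibroblasts, 29646 in ES cells and 13904 in MEF. ES cells were 2.12-fold above MEF (1.08 ± 0.20), and the alternatives other than the spike-in scaling put the difference between 0.86 and 1.09, on both sides of 2-fold. The p53-null difference was -0.26 ± 0.20, with 0.06 under no scaling and 1.71 under spike-in scaling. In ES cells, then, the inhibitor was higher while gp130, Jak1 and Stat3 were lower.

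The promoters of the 9 genes were searched for TTCNNNGAA, the palindrome that STAT dimers bind, which reads the same on both strands. In the RefSeq promoter table for GRCm38.p6, 7.02% of 32851 promoters held it within the 250 bases before the start site, and 1 of the 11 promoters of the 9 genes did. That promoter was the one of Socs3, chr11:117969367-117969616 on the minus strand, with the match starting 154 bases before the start site. The 250 bases before the start are given because Socs3 is the textbook STAT3 target and its promoter is the one with a match, and the capitals mark the match.
Socs3 promoter: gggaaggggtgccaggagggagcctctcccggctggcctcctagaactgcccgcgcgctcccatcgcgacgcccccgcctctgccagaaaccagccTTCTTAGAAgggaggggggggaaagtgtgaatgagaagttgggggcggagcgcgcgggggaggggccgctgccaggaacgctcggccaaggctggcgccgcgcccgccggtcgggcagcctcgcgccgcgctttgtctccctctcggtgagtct

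A match is a description of the sequence, and no binding was measured here. The lack of a match in the other promoters says only that these letters were not in those windows.

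**Figure D4:**
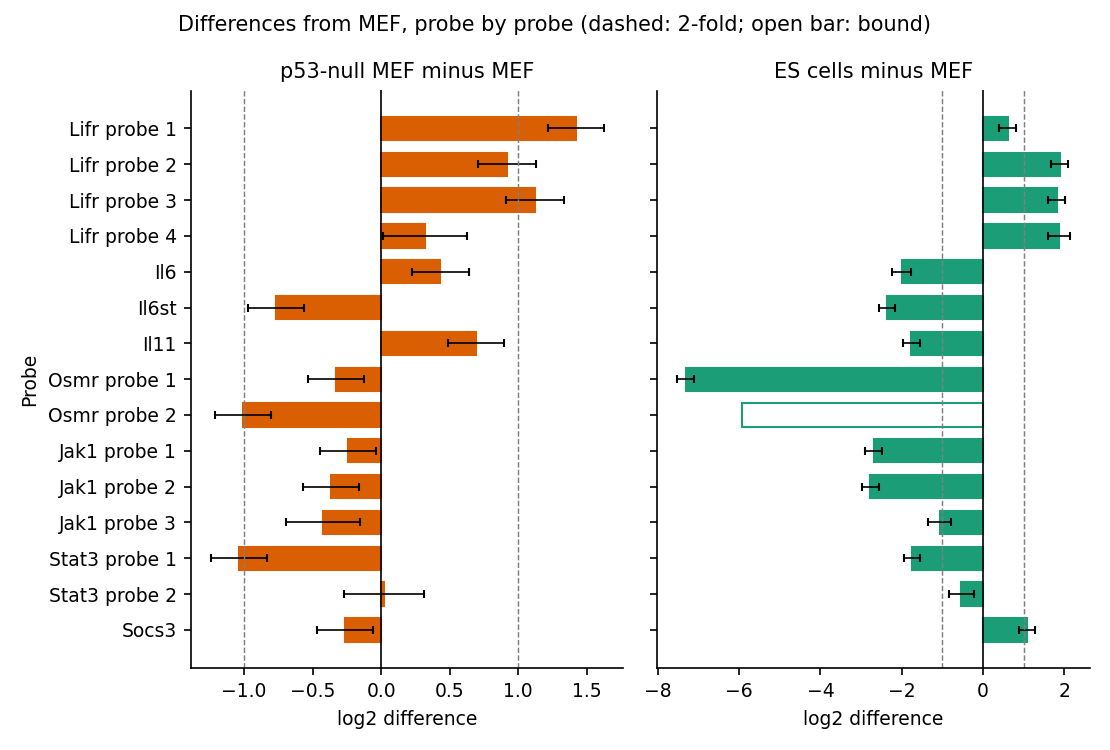
Log2 difference from MEF at each of the 15 probes, for p53-null MEF (left) and ES cells (right); bars show the difference, error bars the scanner software's error, dashed lines 2-fold and the open bar a bound. ES cell differences run from -7.31 at Osmr to 1.88 at Lifr, and p53-null differences from -1.04 at Stat3 to 1.42 at Lifr. Under spike-in scaling all p53-null bars turn positive.

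The genes around these 8 were taken from 8 lists of 94 genes in all, of which 83 could be measured against MEF in p53-null fibroblasts and 87 in ES cells. In p53-null fibroblasts 7 genes were at least 2-fold higher, 16 lower and 60 within 2-fold, with a median of -0.24, beside 18.6% higher and 16.6% lower over all genes. In ES cells 25 were higher, 36 lower and 26 within 2-fold, with a median of -0.28, beside 32.8% higher and 27.2% lower over all genes. The counts of each list are to be read against these shares, and a count near them says nothing of the list. Each gene was read at its brightest probe, and where another probe of a named gene gave another direction its value is stated.

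Among the other ligands of the family, Clcf1 was 3.93-fold lower in ES cells than in MEF and Ctf1, which encodes cardiotrophin 1, 2.02-fold lower. Il27 was 2.53-fold lower in p53-null fibroblasts. Ebi3, which encodes the other chain of IL-27, was not well above background in MEF. It was higher by at least 2.11-fold in p53-null fibroblasts and by at least 8.07-fold in ES cells. Over the list, 1 of 6 ligands was higher and 2 lower in p53-null fibroblasts, with a median of -0.18. In ES cells 1 of 7 was higher and 3 lower, with a median of -0.43. The shares over all genes were 18.6% higher and 16.6% lower in p53-null fibroblasts, and 32.8% and 27.2% in ES cells.

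The ligand-specific receptor chains of ES cells differed from those of MEF in both directions. Cntfr, the chain that binds ciliary neurotrophic factor beside LIFR and gp130, gave 190 units in ES cells against 33.9 in MEF and was 5.56-fold higher. Il27ra was 2.37-fold higher. Il11ra1, the IL-11 binding chain, was 14.8-fold lower in ES cells, an uncertain value because the near-identical copy Il11ra2 may add signal. Il31ra, which pairs with OSMR, was lower by at least 7.10-fold in ES cells and by at least 5.58-fold in p53-null fibroblasts. Il6ra, the IL-6 binding chain, was 3.87-fold lower in p53-null fibroblasts (18.3 against 56.3 units), and its second probe gave -2.76. In all, 2 of 5 receptors were higher and 2 lower in ES cells, beside 32.8% and 27.2% of all genes. None was higher and 2 were lower in p53-null fibroblasts, beside 18.6% and 16.6% of all genes. The medians were -0.56 in ES cells and -0.73 in p53-null fibroblasts. The ES cell median was -1.86 with the mean over all probes and -0.24 with normexp.

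Most other JAK and STAT genes were lower in ES cells than in MEF. Stat5a was 22.0-fold lower, with 182 units in ES cells against 3984 in MEF, and Stat5b 9.74-fold lower. Jak2 was 3.88-fold lower in ES cells and 2.41-fold higher in p53-null fibroblasts, with 2977 units in p53-null fibroblasts, 255 in ES cells and 983 in MEF. Stat4 went the other way and was higher by at least 30.2-fold in ES cells and by at least 2.42-fold in p53-null fibroblasts. Jak3 was 2.61-fold higher in ES cells, and in p53-null fibroblasts its probes disagreed, with -1.5 at the brightest and 1.04 at the other. Tyk2 was 2.54-fold lower in p53-null fibroblasts. The list had 2 of 9 genes higher and 6 lower in ES cells (median -1.49), where 32.8% and 27.2% of all genes were. In p53-null fibroblasts 2 were higher and 2 lower (median -0.58), near the 18.6% and 16.6% over all genes.

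The inhibitors beside Socs3 did not share one direction in ES cells. Socs2 was 6.28-fold higher than in MEF, with 7723 against 1222 units, and Socs7 at least 12.1-fold higher. Pias2, a SUMO ligase of the family that restrains STATs, was 5.64-fold higher. Ptpn6, a phosphatase best known in blood cells, was 12.8-fold higher at its brightest probe but gave -0.57 at another. Socs5 was 11.5-fold lower, Socs1 4.17-fold lower and Cish 2.13-fold lower. In p53-null fibroblasts the phosphatase gene Ptpn2 was 3.02-fold higher, with 10988 units against 2895 in MEF, and its other probe gave 1.70. Socs7 was at least 3.15-fold higher there, while Pias4, Socs5 and Pias3 were 2.66-fold, 2.34-fold and 2.26-fold lower. In total 5 of 14 inhibitors were higher and 3 lower in ES cells, near the 32.8% and 27.2% over all genes. Their median was 0.10, and -0.12 under median scaling. In p53-null fibroblasts 2 were higher and 3 lower (median 0.24), beside 18.6% and 16.6% over all genes.

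The MAPK and PI3K branch, which gp130 also feeds, held no gene past 2-fold in p53-null fibroblasts, with 15 of 15 within 2-fold and a median of -0.12. In ES cells the docking protein gene Gab1 was 14.0-fold higher than in MEF, with 4298 against 304 units. Sos1 was 2.99-fold higher, although the other Sos1 probe gave -1.08. Akt1 was 7.91-fold lower, the kinase gene Mapk3 3.24-fold, the phosphatase gene Ptpn11 2.74-fold and Pik3r1 2.59-fold. The branch thus had 3 genes higher and 5 lower of 15 in ES cells, with a median of 0.13 that was -0.37 with the mean over all probes and -0.10 under median scaling. Over all genes 32.8% were higher and 27.2% lower in ES cells, and 18.6% higher and 16.6% lower in p53-null fibroblasts.

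The genes that STAT3 is known to drive in ES cells were the list with the most genes higher in ES cells. Of 10 measured, 7 were at least 2-fold higher than in MEF and none lower, where 32.8% and 27.2% of all genes were, and the median was 2.22 against 0.20 over all genes. Gbx2 was at least 1107-fold higher, with 13776 units in ES cells, although its other probe gave 0.38. Tfcp2l1 was 151-fold higher, with 4768 units against 31.5 in MEF. Pim3 was 12.6-fold higher and Pim1 7.91-fold higher, with 0.11 at the other Pim1 probe. The part of STAT3 in these differences was not measured.

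Klf4, a STAT3 target and reprogramming factor, was not among those 7. It gave 9144 units in p53-null fibroblasts, 37741 in ES cells and 45701 in MEF. The difference of ES cells from MEF was -0.28, and p53-null fibroblasts stood apart at 6.27-fold below MEF. Klf5 gave 605, 7918 and 1279 units in p53-null fibroblasts, ES cells and MEF, and was 2.65-fold lower in p53-null fibroblasts. Those were the 2 of 9 genes of the list that were lower in p53-null fibroblasts, none was higher, and the median was -0.24. Of all genes 16.6% were lower and 18.6% higher in that comparison.

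Of the STAT3 targets known from other cells, 11 of 19 were lower and 5 higher in ES cells, where 27.2% and 32.8% of all genes were, and the median was -1.17. Cebpd and Cebpb, acute-phase transcription factors, were 14.7-fold and 11.9-fold lower than in MEF, and the mesenchymal factor gene Twist1 16.9-fold lower. Hp, which encodes haptoglobin, was at least 17.0-fold lower. Birc5, the survivin gene of dividing cells, was 5.46-fold higher in ES cells and Bcl3 4.59-fold higher. Fgg and Saa3, both acute-phase genes, were not well above background in MEF and were at least 2.33-fold and 2.21-fold higher. Both were dim in ES cells, with 29.0 and 27.6 units, where the lowest signal well above background was 10.1. In p53-null fibroblasts, Birc5 was 5.25-fold higher than in MEF, with 80735 units against 12249, and Fos 2.17-fold higher. Icam1, Ccnd1, Bcl2l1 and Timp1 were 4.38-fold, 4.16-fold, 2.94-fold and 2.37-fold lower there. These made 2 of 17 genes higher and 4 lower in p53-null fibroblasts, beside 18.6% and 16.6% of all genes, with a median of -0.32.

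The remaining list held NF-kB and inflammatory cytokine genes, of which 8 of 13 could be measured. In ES cells 6 of the 8 were lower than in MEF and none higher, where 27.2% and 32.8% of all genes were. The median was -3.59 over these 8. With no filter on dim probes, the median over all 13 was -0.88. The neutrophil chemokine gene Cxcl5 was at least 312-fold lower in ES cells, Cxcl1 53.2-fold lower, and the macrophage growth factor and chemokine genes Csf1 and Ccl2 were 27.5-fold and 27.4-fold lower. In p53-null fibroblasts only Csf1 was past 2-fold, 3.88-fold lower with 7219 units against 22321, and the median was -0.44. Of all genes 16.6% were lower and 18.6% higher there. Macrophage markers differed too, though not in one direction: 5, 7 and 8 of 12 were well above background in p53-null fibroblasts, ES cells and MEF, and their summed level was 20.3% of the MEF level in p53-null fibroblasts and 29.9% in ES cells. The pan-leukocyte Ptprc and the macrophage markers Itgam, Aif1 and Mrc1 were not well above background in MEF, and the part of macrophage RNA in these results was not tested. Most of the sum in MEF was Lyz2, the macrophage lysozyme gene, with 126, 62.2 and 1980 units in p53-null fibroblasts, ES cells and MEF. Trem2, Csf1r and Tyrobp were below MEF too, by at least 5.88-fold, 3.08-fold and 2.63-fold in p53-null fibroblasts. In ES cells Trem2 was 6.59-fold below MEF, Csf1r and Tyrobp at least 3.92-fold and 3.12-fold, and Cd14 6.07-fold. Other markers went the opposite way in ES cells: Cd68 was 3.20-fold above MEF, and Mrc1 and Itgam at least 5.67-fold and 3.41-fold. Of the markers measured in p53-null fibroblasts, Ptprc alone stood more than 2-fold above MEF, by 2.41-fold or more.

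**Figure D5:**
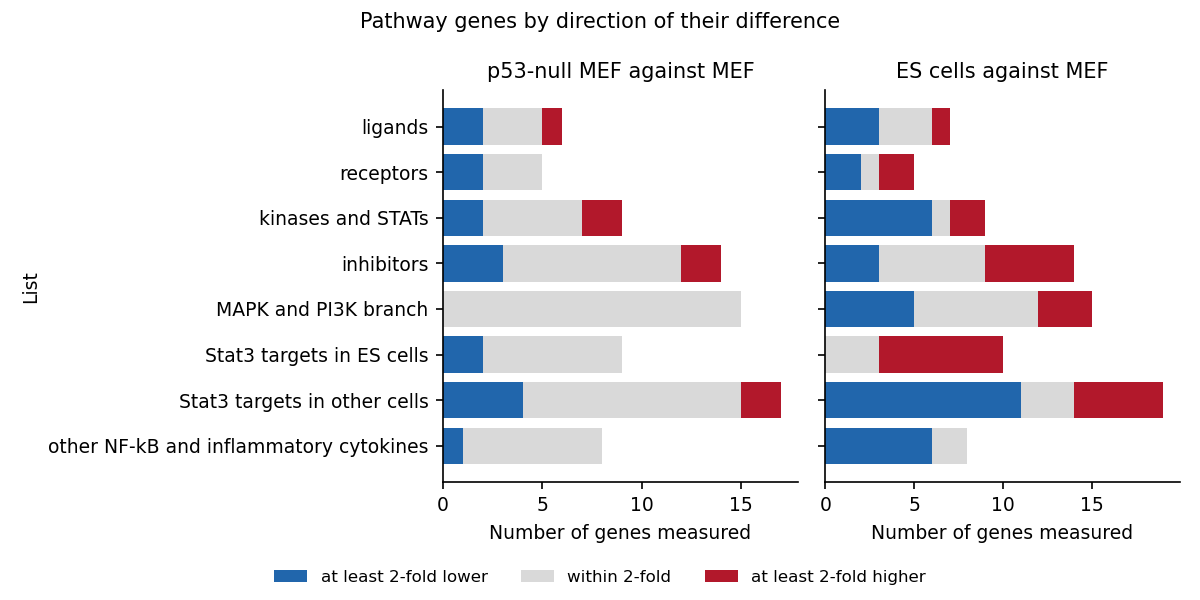
Number of measured genes of each pathway list at least 2-fold lower, within 2-fold or at least 2-fold higher than MEF, in p53-null MEF (left) and ES cells (right), each gene at its brightest probe. The list of STAT3 targets in ES cells has 7 of 10 genes higher in ES cells and none lower, beside 32.8% and 27.2% of all genes. The MAPK and PI3K branch has none past 2-fold in p53-null MEF, where 18.6% of all genes are higher and 16.6% lower. Under spike-in scaling 65 of the measured genes are higher in p53-null MEF and none lower.

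The genes most like each member were taken as the 3 nearest of 14332 genes by the distance between their differences on the 3 arrays. Those nearest to Socs3 were Ccdc92, Endog and Gtpbp6, and those nearest to Lifr were Rbm15b, 2010208K18Rik and 2310002J21Rik. Il6 lay nearest to NAP030437-1, Cyp51 and Rrad, and Il11 to Arl4c, Eno3 and Pja2. For Il6st they were Colec11, C330002I19Rik and Nptn, for Jak1 Garnl4, Anxa4 and Lrp12, and for Stat3 2010200O16Rik, Ptk7 and BC031426. Osmr had the most distant neighbours, Igf2, Olfml2b and Matn2, at 0.154 to 0.219 in log2, against 0.00482 between Socs3 and Ccdc92. Igf2, the fetal growth factor gene, was -7.44 in ES cells against MEF and -0.24 in p53-null fibroblasts, beside -7.31 and -0.33 for Osmr. With 3 arrays and so many genes, a number of genes lie close to any pattern, so nearness describes these arrays only.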

How the data were processed

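Total RNA of 3 samples was hybridised with Cy3 to 1-colour arrays. The deposited intensity values came from Agilent Feature Extraction, version 9.5.3.1 in the file headers, and per the file headers the authors' processed signal is background-subtracted and corrected for trends within an array, and is not scaled between arrays. The authors' value table of the series held the same intensity values, as ratios between 0.995 and 1.005 showed. The log2 of the deposited processed signal was taken here and the 75th percentile of each array's non-control spots subtracted.

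The 1639 control spots were left out, with 62, 176 and 192 uneven or outlier spots on the p53-null MEF, ES and MEF arrays. Spots of a probe were averaged, and a probe was well above background when at least 50% of its kept spots were so marked. Bounds were set against the lowest signal well above background on the dim array: 16.0, 10.1 and 12.4 units in p53-null MEF, ES cells and MEF. In all, 26198, 27954 and 26462 spots were well above background, and repeated probes had a median coefficient of variation of 3.64%, 3.47% and 4.47%. The number of arrays, 1 per group, limits the precision, and no p-value was computed. Probe positions are those of the newest design listing (mm8). Of the 94 pathway genes, 92 matched by name and 2 by RefSeq accession.

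Named were all probes of the member genes, up to 4 genes per list, comparison and direction past 2-fold, Trp53, and the 3 nearest genes of each member. Some genes that this rule names are not reported here. Members and lists were chosen with earlier results of these data known. Median and quantile scaling, no scaling, normexp (offset 50; limma 3.58.1 in R 4.3.3), kept spots, no filter, mean probes and 5-fold were tried. The calculations (Python 3.11.15, pandas 2.3.3) were tested on simulated data.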

Additional observations from a re-analysis of the deposited data

How the results depend on the processing

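Precision is limited by 1 array per group and, for probes under about 100 units, by signal over background. No paired analysis was possible because each group has a single array. Spike-in scaling was chosen after seeing the data. Of 270 values of single probes under an alternative, 191 moved by less than their error. The 191 include values that could hardly move. The authors' value table held the same intensities, and keeping uneven spots or lifting the filter on dim probes touches few of these probes. Spike-in scaling turned each negative p53-null value positive, and 2 of these had been at least 2-fold lower: Osmr A_52_P495729 became 0.97 and the brighter Stat3 probe 0.94.

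Counts in this paragraph are of genes at least 2-fold higher or lower, except where 5-fold is named. The count of member genes higher in p53-null MEF, 1, became 2 with no scaling, 0 with the mean of all probes, 0 at 5-fold and 7 with spike-ins. The count lower, 1, became 0 under median scaling, no scaling, mean probes, 5-fold and spike-ins. The pathway genes higher, 7, became 13 with no scaling, 4 with normexp and either scaling, 1 at 5-fold and 65 with spike-ins, and those lower, 16, became 2 at 5-fold and 0 with spike-ins. Their median, -0.24, became 0.087 with no scaling and 1.74 with spike-ins. In ES cells the 1 member higher became 0 under median scaling, quantile normalization, normexp with quantile and 5-fold, and 2 with mean probes, and the 6 lower became 3 at 5-fold. Pathway genes in ES cells at 5-fold were 15 higher and 21 lower, and their median, -0.28, became -0.51 under median scaling and -0.053 with spike-ins. The cause of these changes was not tested, except that a 5-fold threshold passes fewer genes. The median over all genes moved by 0.33 with no scaling in p53-null MEF, and by -0.20, -0.12 and -0.37 in ES cells under median scaling, quantile normalization and no filter. Of 144 list medians 48 moved by 0.2 or more, as did 7 of 16 gene values from mean probes.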
